A study of Mus musculus with 8 samples.

Results

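The genes for the proteins of the mitochondrial ribosome were compared between the striata of CHL2 mutant and wild-type mice. A gene was a member when its symbol in the platform annotation was Mrpl or Mrps followed by a digit and when it had a probe set, a group of probes read as 1 value, that was assigned to it alone. This gave 76 members among 18193 genes tested, 47 with an Mrpl and 29 with an Mrps symbol. They were read by 156 probe sets in all, and each gene was represented by the one with the highest mean over the arrays. Mrpl30 and Mrpl53 had only probe sets shared with other genes and were not analysed here.

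Each of 8 mice aged 22 months, of the C57BL/6 X CBA F1 hybrid strain, gave striatal RNA for 1 Affymetrix array. The 4 CHL2 mice model Huntington's disease and were Q150/Q150: both copies of their own Htt gene held 150 CAG repeats taken from the first exon of the human gene. Mice 141, 153 and 154 of this group were female and mouse 191 was male. In the 4 wild-type mice, of the same age, mouse 161 was female and mice 170, 180 and 200 were male. The striatum is a mixture of cells, and in such bulk RNA fewer cells of a type and less RNA per cell cannot be told apart. The labels name the animals but not their litters or the day of dissection.

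Mitochondria keep ribosomes of their own, which make the few respiratory chain subunits that are encoded by mitochondrial DNA. The ribosomal RNAs come from the mitochondrial genome, while the proteins are all encoded in the nucleus, made in the cytosol and imported. The small subunit reads the messenger RNA and the large subunit joins the amino acids. Some of the proteins descend from those of bacterial ribosomes, and others were added in the mitochondrial lineage. Neurons of the striatum depend on oxidative phosphorylation, and mitochondrial function in them has long been studied in Huntington's disease.

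Promoters of 5 members are shown because the results turn on these genes. Mrpl39 and Mrps22 were higher in the mutants, Mrpl41 and Mrps21 had the lowest log2 changes of all members, and Mrpl40 starts beside Hira, a gene that rose. The sequences are from RefSeq, build GRCm38.p6, and run from 250 bases before to 50 bases after the start of the gene, at chr16:84735195-84735494 on the minus strand for Mrpl39, chr9:98601630-98601929 on the minus strand for Mrps22, chr2:24975049-24975348 on the minus strand for Mrpl41, chr3:95871465-95871764 on the minus strand for Mrps21 and chr16:18876588-18876887 on the minus strand for Mrpl40. Capitals mark matches, on either strand, to 3 motifs of factors known to act on nuclear genes for mitochondrial proteins, the NRF1 palindrome, the ETS core CCGGAAG of GABP and the core AANATGGCG of YY1.
Mrpl39: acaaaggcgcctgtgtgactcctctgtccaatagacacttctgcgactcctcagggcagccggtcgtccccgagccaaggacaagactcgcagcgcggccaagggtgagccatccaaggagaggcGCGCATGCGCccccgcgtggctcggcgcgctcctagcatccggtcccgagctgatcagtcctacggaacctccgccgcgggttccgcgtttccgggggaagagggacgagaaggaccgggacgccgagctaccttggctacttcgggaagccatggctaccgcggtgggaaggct
Mrps22: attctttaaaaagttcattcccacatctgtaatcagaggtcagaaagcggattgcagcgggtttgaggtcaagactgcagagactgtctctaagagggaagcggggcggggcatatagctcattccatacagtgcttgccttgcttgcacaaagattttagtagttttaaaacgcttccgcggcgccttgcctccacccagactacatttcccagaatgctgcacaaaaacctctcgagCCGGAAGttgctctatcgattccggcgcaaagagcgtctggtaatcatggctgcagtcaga
Mrpl41: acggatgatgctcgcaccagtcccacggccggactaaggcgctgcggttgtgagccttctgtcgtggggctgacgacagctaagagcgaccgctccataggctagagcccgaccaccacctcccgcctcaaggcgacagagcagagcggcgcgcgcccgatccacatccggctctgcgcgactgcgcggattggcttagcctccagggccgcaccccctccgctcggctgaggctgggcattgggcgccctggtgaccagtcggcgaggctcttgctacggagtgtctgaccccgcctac
Mrps21: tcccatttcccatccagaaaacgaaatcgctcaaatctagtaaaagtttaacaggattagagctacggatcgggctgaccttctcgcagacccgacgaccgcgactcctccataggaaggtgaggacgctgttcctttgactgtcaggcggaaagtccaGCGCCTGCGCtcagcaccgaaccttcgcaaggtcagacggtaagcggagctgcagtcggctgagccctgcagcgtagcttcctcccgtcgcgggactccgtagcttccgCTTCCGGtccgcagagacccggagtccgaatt
Mrpl40: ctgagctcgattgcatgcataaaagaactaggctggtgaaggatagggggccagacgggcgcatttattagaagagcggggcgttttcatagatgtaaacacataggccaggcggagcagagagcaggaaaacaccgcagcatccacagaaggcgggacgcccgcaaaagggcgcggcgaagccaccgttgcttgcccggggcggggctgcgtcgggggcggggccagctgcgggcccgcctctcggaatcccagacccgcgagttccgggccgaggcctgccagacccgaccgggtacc
Mrpl39 held the NRF1 motif, Mrps22 the GABP motif and Mrps21 both, while neither Mrpl41 nor Mrpl40 held any of the 3 in this window.

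Such motifs stood in a larger share of member promoters than of promoters at large, and no test of this was made. RefSeq promoters were matched for 67 members, and there was no entry for Mrpl4, Mrpl13, Mrpl15, Mrpl19, Mrpl38, Mrpl54, Mrps28, Mrps34 and Mrps35. The GABP motif stood in 24 of the 67 (35.8%), against 9.12% of 27025 promoters in the table and 13.8% of those of genes tested. The NRF1 motif stood in 12 (17.9%), against 4.78% and 7.95%, and the YY1 motif in 11 (16.4%), against 2.51% and 3.87%. The lists most like the members had such shares too: the GABP motif stood in 48.7% of 39 cytosolic ribosomal protein promoters and 25.9% of 58 respiratory chain promoters, the NRF1 motif in 10.3% and 24.1%, and the YY1 motif in 7.69% and 12.1%. No member promoter had overlapping matches of different motifs, and 28 of the 67 had none. The median log2 change between the genotypes was 0.14 for the 24 members with the GABP motif and 0.06 for the 43 without it, 0.16 for the 12 with the NRF1 motif and 0.10 for the 55 without, and 0.07 for the 11 with the YY1 motif and 0.10 for the 56 without. These are descriptions of the sequences, and a match is not evidence of binding.

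The arrays were alike in level, with medians between 6.18 and 6.22 on the log2 scale over the genes tested. Correlations between arrays were r = 0.993 to 0.997 within and r = 0.987 to 0.991 between the groups, across genes, which are not independent. Wild-type mouse 170 stood apart in RNA quality, with a 3' minus 5' difference of 1.37 for the Gapdh control probe sets and 2.65 for those of beta-actin, against 0.32 to 0.43 and 1.23 to 1.51 in the other 7 mice. The striatal label was borne out by 9 defining markers of medium spiny neurons, the projection neurons of this tissue, whose mean wild-type levels lay between 10.3 and 12.4. Htt itself was lower in the mutants by a log2 change of -0.67 (SE 0.09, adjusted p = 0.00101). Log2 changes here are mutant minus wild type from a limma fit with genotype and sex, and a gene is said to rise or fall when its p, adjusted over all genes by Benjamini-Hochberg, was under 0.05.

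Mutant striatum showed small differences in this gene family, most of them upwards. Mrpl39, Mrps34 and Mrps22 rose, by 1.43-, 1.28- and 1.25-fold, and 0 members fell. The share that rose, 3.95%, was below the 6.40% of all genes that rose, so the count of rises does not set the members apart. Beside the 0 members that fell, 6.01% of all genes fell, and this difference was not tested. By unadjusted p under 0.05, 14 members (18.4%) were higher and 2 (2.63%) lower, against 14.0% and 11.8% of all genes. Of the 9097 genes at or above the median level of all genes, 1989 were higher and 1450 lower by that p. The log2 change was above 0 for 56 of 76 members (73.7%), against 51.2% of all genes and 58.1% of those at or above the median level. The median log2 change was 0.10, against 0.01 for all genes and 0.05 for those at or above the median level, where 75 of the 76 members lay. Among genes at or above that level, 10.2% rose and 9.53% fell.

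The members moved within narrow limits. Their log2 changes ran from -0.34 to 0.51, with the middle part between -0.02 and 0.17. None reached 1.5-fold, a size reached by 4.44% of all genes and 6.49% of those at or above the median level. The SE of the log2 change was between 0.07 and 0.15, and for 72 members the 95% interval lay within 1.5-fold either way. The exceptions were Mrpl33, Mrpl39 and Mrps11, whose intervals reached past it upwards, and Mrpl41, whose interval reached past it downwards.

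**Figure D1:**
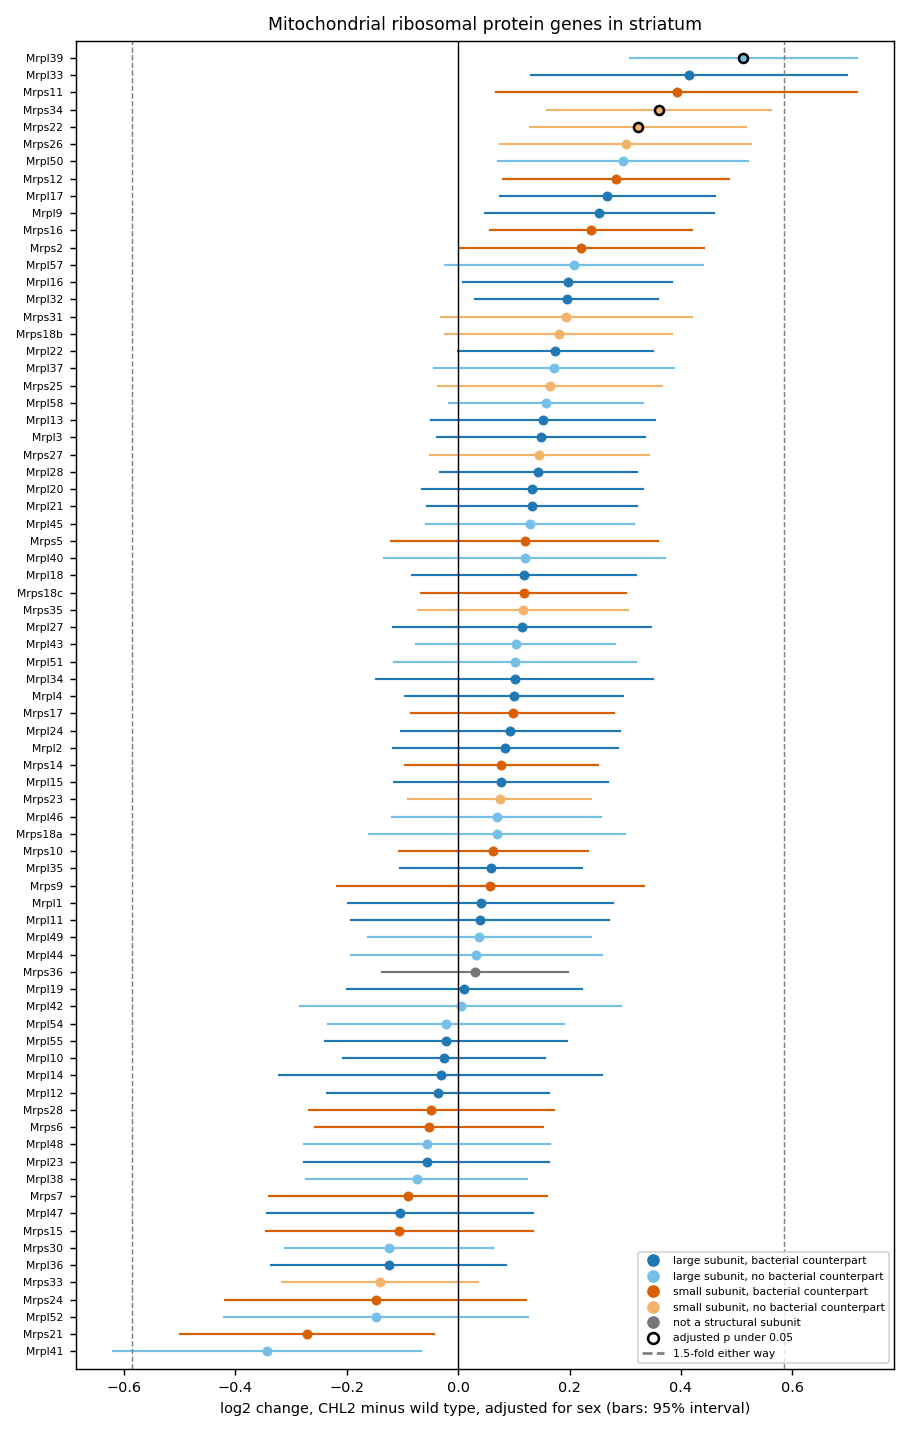
Log2 change between CHL2 and wild-type striatum, adjusted for sex, for each of the 76 members (points), with 95% intervals (bars), ordered by size and coloured by subunit and by whether bacteria have a counterpart. Points ringed in black, Mrps22, Mrps34 and Mrpl39, passed an adjusted p of 0.05, and dashed lines mark 1.5-fold either way.

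The mean over the members separated the groups by little. For each mouse the deviation of every member from its own mean over the 8 mice was averaged. It was 0.022, 0.079, 0.015 and 0.052 in mutants 141, 153, 154 and 191, and -0.041, -0.036, -0.083 and -0.0081 in wild-type mice 161, 170, 180 and 200. All mutants lay above all wild-type mice, though mutant 154 and wild-type 200 were close. Mutant 153 had the highest of the 8 values for 28 members and mutant 191 for 20, while wild-type 180 had the lowest for 19 and the highest for 0. No overlap between the groups was seen for 15 members that were higher in the mutants (19.7%, against 11.4% of all genes) and for 1 that was lower, Mrps30 (1.32%, against 9.27%). Of the 9097 genes at or above the median level, 1721 were higher and 1289 lower without overlap, so the count that was higher does not set the members apart.

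**Figure D2:**
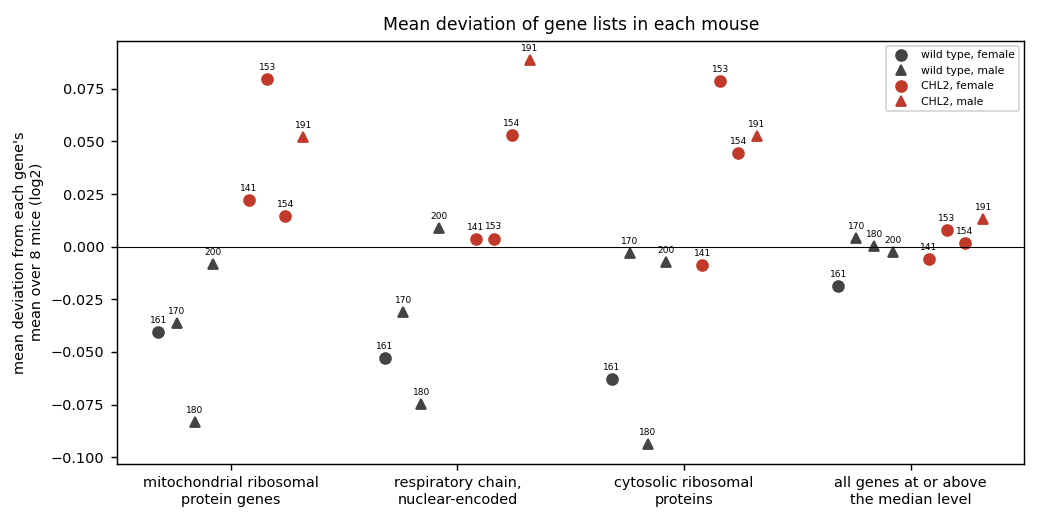
Mean deviation, in log2 units, of the genes of a list from each gene's mean over the 8 mice, with 1 point per mouse, for the members, nuclear-encoded respiratory chain genes, cytosolic ribosomal proteins and all genes at or above the median level. For the members the mutants range from 0.015 to 0.079 and the wild-type mice from -0.083 to -0.0081, whereas for all genes at or above the median level the groups overlap.

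In the large subunit, proteins without a bacterial counterpart included the clearest rise. Mrpl39, whose protein is related to threonyl-tRNA synthetase, had values of 10.21, 10.25, 10.24 and 10.48 in mutants 141, 153, 154 and 191 and of 9.78, 10.07, 9.79 and 9.86 in wild-type mice 161, 170, 180 and 200. All mutants were above all wild-type mice, with male mutant 191 highest and wild-type 170 nearest to the mutants. The means were 10.29 ± 0.12 (SD, n = 4) and 9.87 ± 0.14, and the log2 change was 0.51 (SE 0.09, adjusted p = 0.00526). A second probe set for Mrpl39, at a mean level of 7.87, gave a log2 change of 0.59 (SE 0.11, adjusted p = 0.00996 over all probe sets). The call was lost without mutant 191 (log2 change 0.45, adjusted p = 0.107), where the female mutants are set against wild-type 161 alone. Of 20 members in this group 1 rose and 0 fell, 14 had a log2 change above 0, and the median was 0.07. Mrpl50, with values of 6.72 to 7.02 in the mutants and 6.43 to 6.64 in wild-type mice, had a log2 change of 0.30 (adjusted p = 0.0882).

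Mrpl41, another large subunit protein without a bacterial counterpart, had the lowest log2 change of the family. Its values were 9.68, 9.97, 9.60 and 9.26 in the mutants, in the order 141, 153, 154 and 191, and 9.86, 9.86, 9.77 and 9.85 in wild-type mice 161, 170, 180 and 200. Mutant 191 was far below and mutant 153 above all wild-type mice, so the groups overlapped. Without mutant 191 the log2 change was -0.12 (adjusted p = 0.758). The log2 change was -0.34 (SE 0.12, adjusted p = 0.107), and it passed without mutant 153 (log2 change -0.41, adjusted p = 0.0247). A second probe set at a mean level of 9.37 gave a log2 change of -0.22 (unadjusted p = 0.0255). Mrpl52 had a log2 change of -0.15 (adjusted p = 0.521). Mrps30 and Mrps18a carry small subunit names but sit in the large subunit. Mrps30, at 8.01 to 8.06 in the mutants and 8.10 to 8.31 in wild-type mice, had a log2 change of -0.12 (adjusted p = 0.409).

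Large subunit proteins with a bacterial counterpart included 0 of 29 that rose and 0 that fell, with 22 above 0 and a median log2 change of 0.10. Mrpl33 had the second largest log2 change of all members, 0.41 (SE 0.13, adjusted p = 0.0611). Its values were 8.46, 8.86, 8.48 and 8.41 in mutants 141, 153, 154 and 191 and 8.10, 8.27, 7.94 and 8.04 in wild-type mice 161, 170, 180 and 200, with mutant 153 well above the rest and no overlap. It passed without sex in the fit (adjusted p = 0.0148), and without wild-type 170 (adjusted p = 0.0352), but on the mean of its probe sets its log2 change was 0.16 (adjusted p = 0.399). Mrpl32, which is cut by a mitochondrial inner membrane protease before it joins the ribosome, ran from 8.90 to 9.02 in the mutants and from 8.65 to 8.84 in wild-type mice (log2 change 0.20, SE 0.07, adjusted p = 0.121). Mrpl17 ran from 8.34 to 8.41 and from 8.001 to 8.25 (log2 change 0.27, SE 0.09, adjusted p = 0.0747). The proteins of the stalk that recruits translation factors were near 0, with log2 changes of -0.03 for Mrpl10, 0.04 for Mrpl11 and -0.04 for Mrpl12.

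The small subunit held the other rises. Mrps34, which has no bacterial counterpart and whose human gene is mutated in a mitochondrial encephalopathy, had values of 9.03, 9.18, 9.08 and 9.32 in mutants 141, 153, 154 and 191 and 8.70, 8.96, 8.88 and 9.13 in wild-type mice 161, 170, 180 and 200. Wild-type 200 lay within the range of the mutants, and in each genotype the females were lower than the males. The log2 change was 0.36 (SE 0.09, adjusted p = 0.0260), from 8.92 ± 0.18 (SD, n = 4) to 9.15 ± 0.13, and the sex difference, female minus male, was -0.25 (adjusted p = 0.386). Without sex in the fit the log2 change was 0.23 and the call was lost (adjusted p = 0.155). It was also lost without mutant 191 (log2 change 0.39, adjusted p = 0.155) and without wild-type 161 (log2 change 0.33, adjusted p = 0.226), in fits of fewer mice whose log2 changes were close to that of all 8.

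Mrps22, also without a bacterial counterpart and a gene of inherited mitochondrial disease, was tight within the mutants, at 7.76, 7.74, 7.75 and 7.80, against 7.58, 7.37, 7.32 and 7.30 in wild-type mice 161, 170, 180 and 200. The groups did not overlap, and wild-type 161 was nearest to the mutants. Its log2 change was 0.32 (SE 0.09, adjusted p = 0.0369), and 0.37 (adjusted p = 0.00806) without sex in the fit. Without mutant 191 the log2 change was 0.17 (adjusted p = 0.459), a fit in which wild-type 161 is the one mouse set against the female mutants. Of the 10 members in this group 2 rose and 0 fell, against 6.40% and 6.01% of all genes. Among genes at or above the median level, 10.2% rose and 9.53% fell. The log2 change was above 0 for 9 of the 10, against 51.2% of all genes and 58.1% at or above that level. The median of the 10 was 0.17, and no test of the group was made. Mrps26 ran from 8.94 to 9.25 in the mutants and from 8.70 to 8.93 in wild-type mice (log2 change 0.30, adjusted p = 0.0839). Mrps33 was the exception below 0, at 9.80 to 10.05 in the mutants and 10.04 to 10.20 in wild-type mice (log2 change -0.14, adjusted p = 0.313).

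Small subunit proteins with a bacterial counterpart ran both ways, with 0 of 16 that rose, 0 that fell, 10 above 0 and a median log2 change of 0.07. Mrps12, a protein of the decoding centre, ran from 9.23 to 9.40 in the mutants and from 8.88 to 9.11 in wild-type mice (log2 change 0.28, SE 0.09, adjusted p = 0.0719). Mrps11 had values of 7.55, 7.58, 7.67 and 7.83 in the mutants and 7.46, 6.88, 7.31 and 7.38 in wild-type mice 161, 170, 180 and 200, so the groups did not overlap although wild-type 170 alone was far below. Its log2 change was 0.39 (SE 0.15, adjusted p = 0.116), and it was 0.14 (adjusted p = 0.751) without mutant 191. A dimmer probe set for Mrps11, at 5.45 to 5.77 in the mutants and 4.77 to 5.06 in wild-type mice, had a log2 change of 0.66 (SE 0.11, adjusted p = 0.00770 over all probe sets), and Mrps11 passed when its probe sets were averaged (log2 change 0.53, adjusted p = 0.00350).

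Mrps21 had the opposite direction, at 8.73, 8.69, 8.90 and 8.98 in mutants 141, 153, 154 and 191 and 9.20, 9.15, 8.98 and 9.19 in wild-type mice 161, 170, 180 and 200. Mutant 191 and wild-type 180 met in the middle, to within the rounding of these values. The log2 change was -0.27 (SE 0.10, adjusted p = 0.121), and it passed without sex in the fit (log2 change -0.30, adjusted p = 0.0400). Mrps24 had a log2 change of -0.15 (adjusted p = 0.514) at a mean level of 8.84. A second probe set for Mrps24, at a mean level of 8.75, went the other way, with a log2 change of 0.09 (adjusted p = 0.735 over all probe sets). Mrps36, which is better known as a component of the 2-oxoglutarate dehydrogenase complex than as a ribosomal protein, had a log2 change of 0.03 (adjusted p = 0.859).

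**Figure D3:**
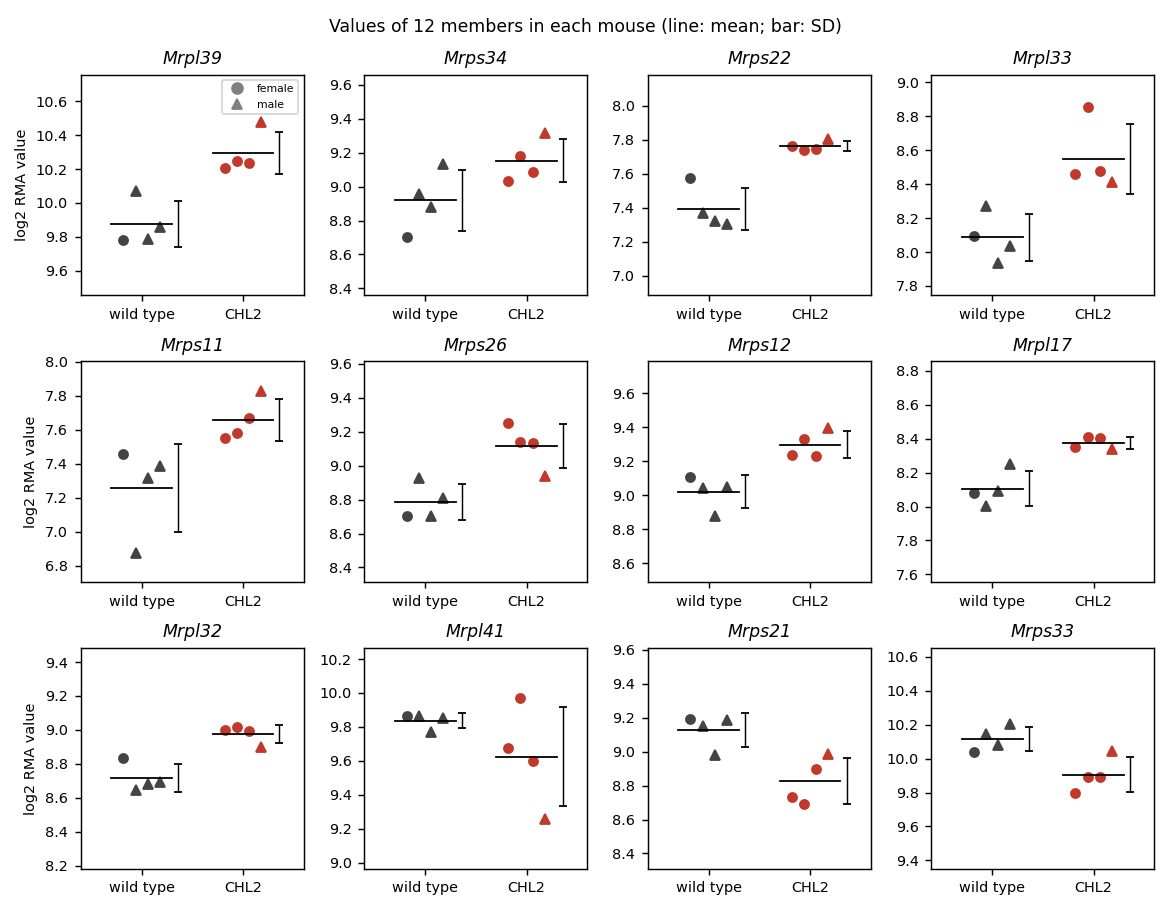
Log2 RMA values of 12 members in each mouse, with circles for females, triangles for males, a line at the group mean and a bar for the SD (n = 4), on axes of equal height. The mutants lie above the wild-type mice for 8 of the first 9 genes, with overlap for Mrps34, and the groups overlap for Mrpl41, Mrps21 and Mrps33, which are lower on average in the mutants.

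Of the paralogs of bacterial protein S18 none passed the threshold, and differences between them were not tested. In the groups above, Mrps18c was counted as having a bacterial counterpart, and Mrps18a and Mrps18b as having none. The log2 change was 0.07 for Mrps18a (adjusted p = 0.749), 0.18 for Mrps18b (adjusted p = 0.254) and 0.12 for Mrps18c (adjusted p = 0.429), with 95% intervals of -0.16 to 0.30, -0.02 to 0.38 and -0.07 to 0.30. A list that need not be complete, and that lacks Mrpl39, gave 12 members whose human counterparts carry variants that cause mitochondrial disease. Of these 12, 2 rose, Mrps34 and Mrps22, and 0 fell, against 6.40% and 6.01% of all genes. Their median log2 change was 0.11. Every value of every member was above the level of 5 used as a floor in other settings. The dimmest, Mrpl1, Mrpl54 and Mrps27, had log2 changes of 0.04, -0.02 and 0.15, none past the threshold.

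Sex was unbalanced between the groups, and the fit weighs mice 161 and 191 most, each the lone animal of its sex in its group. In the females the median log2 difference of the members, mutants against wild-type 161, was 0.07, and in the males, mutant 191 against the wild-type mice, it was 0.10. For 58 members the sexes gave the same sign, 46 upwards and 12 downwards, and for 18 they gave opposite signs. No member differed between the sexes in the limma fit (5 at an unadjusted p under 0.05, and 0.0275% of all genes at the adjusted threshold). No member showed an interaction of genotype and sex (1, Mrpl51, at an unadjusted p under 0.05, and 0.00550% of all genes at the adjusted threshold).

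The number of members called depended on the sex term. Without it 8 rose (10.5%, against 7.66% of all genes) and 1 fell (against 7.50%). Of the 9097 genes at or above the median level, 1127 rose and 1085 fell in that fit. Of the 3 members that rose with the term, 2 were among the 8. The added rises were Mrpl17, Mrpl32, Mrpl33, Mrps11, Mrps12 and Mrps26, and the fall was Mrps21. With the dimmer genes below the median level left out, 10 of 75 rose (13.3%, against 15.4% of the genes kept) and 0 fell (against 12.5%). Without mutant 191 the count that rose was 0 (3.86% of all genes passed, 1.61% upwards and 2.25% downwards), and without wild-type 161 it was 2 (4.75%, 1.96% and 2.79%). With mouse 170, whose RNA stood apart, left out, 3 rose (3.95%, against 6.22% of all genes) and 0 fell (against 5.61%), and the median log2 change of the members was 0.09.

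**Figure D4:**
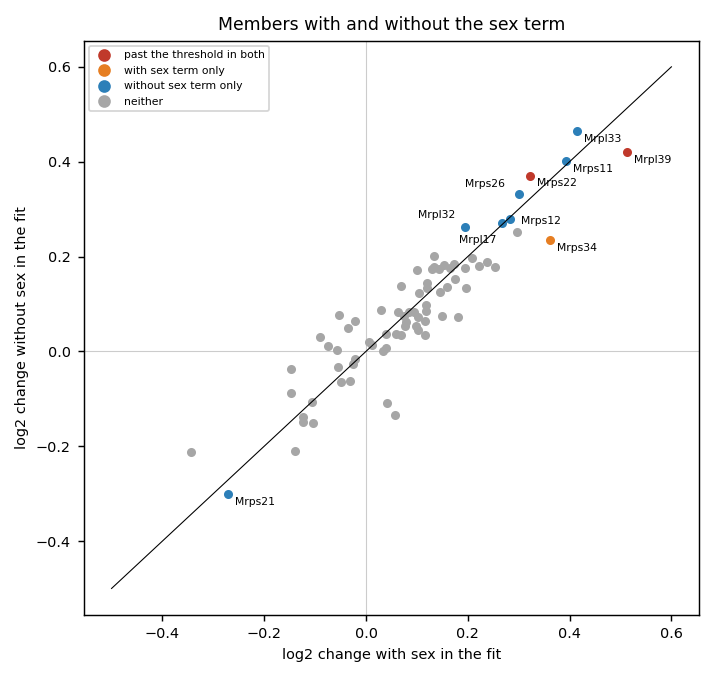
Log2 change of each of the 76 members with sex in the fit (horizontal) and without it (vertical), with a line of equality and colours for an adjusted p under 0.05 in both fits, in either fit alone or in neither. Mrpl39 and Mrps22 passed in both, Mrps34 with the term alone, and 7 members without it alone.

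Other probe sets of the members mostly pointed the same way. Of 80 further probe sets for the 42 members that had several, 58 had the sign of the representative, and of the 52 with a mean level of at least 5, 38 had it. Of these 80, 4 passed when all 45037 probe sets were tested, 1 each for Mrpl39, Mrps11, Mrps14 and Mrps25, and all 4 were higher in the mutants (3.26% of all probe sets rose and 3.44% fell). No member had probe sets that differed in sign with both at an unadjusted p under 0.05.

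Many members share a promoter region with a neighbour that is read in the opposite direction. A gene on the other strand started within 300 bases upstream of 20 of the 67 members (29.9%), against 8.76% of all promoters in the table. Changes were not shared throughout. The 20 partners include Mrps11 and Mrpl46 for each other. Of the 20, 3 passed the threshold, Hira, Psma2 and 2610507I01Rik, the partner of Mrpl55, and all 3 rose. Of all genes 12.4% passed, 6.40% upwards and 6.01% downwards, and no test of the partners as a group was made. For 2610507I01Rik the groups overlapped, and the call was lost without the sex term. Its probe set also did not pass when all probe sets were tested (adjusted p = 0.0556 in the limma fit). Of the 18 partner genes outside the family 10 had a log2 change above 0, and both genes had the same sign in 10 of the 19 distinct pairs. Hira, a histone chaperone gene that starts 113 bases from Mrpl40, had means of 7.58 ± 0.17 (SD, n = 4) in wild-type and 8.43 ± 0.08 in mutant mice. It rose with a log2 change of 0.95 (SE 0.09, adjusted p = 0.000140), or of 0.37 (adjusted p = 0.0338) on the mean of its probe sets. Mrpl40, whose promoter is printed above, had values of 8.74, 8.98, 8.58 and 8.78 in mutants 141, 153, 154 and 191 and 8.71, 8.45, 8.68 and 8.67 in wild-type mice 161, 170, 180 and 200, and a log2 change of 0.12 (SE 0.11, adjusted p = 0.583). The difference between the partners was not tested. Psma2, a proteasome subunit gene that starts 205 bases from Mrpl32, rose by 0.35 (adjusted p = 0.0155), beside the 0.20 of Mrpl32. Its log2 change was 0.32 (adjusted p = 0.184) without mutant 191 and 0.39 (adjusted p = 0.0972) without wild-type 161. Mrps11 and Mrpl46 are partners of each other, 42 bases apart, with log2 changes of 0.39 and 0.07. Mrps12 and Sars2, the mitochondrial seryl-tRNA synthetase gene, had log2 changes of 0.28 and 0.09.

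Gene groups that work with the mitochondrial ribosome had few calls each. The 4 measured subunits under other names had log2 changes of 0.27 for Gadd45gip1 (adjusted p = 0.0915), -0.02 for Chchd1, -0.06 for Dap3 and -0.15 for Ptcd3, and none passed. Of 16 mitochondrial translation factors, Guf1, an elongation factor, rose by 0.47 (adjusted p = 0.0233) and 0 fell, with a median log2 change of 0.08. Without wild-type 161 the log2 change of Guf1 was 0.26 (adjusted p = 0.373). Lrpprc, which stabilises mitochondrial messenger RNAs, had a log2 change of 0.26 (adjusted p = 0.0733). Of 27 assembly and ribosomal RNA modification genes 2 rose, Trub2 and Mettl15, and 0 fell, with a median of 0.05. Of 17 genes for mitochondrial DNA transcription and upkeep, Ppargc1b, a coactivator of mitochondrial genes, fell by 0.46 (adjusted p = 0.00953) and 0 rose, and its log2 change was -0.48 (adjusted p = 0.101) without mutant 191 and -0.45 (adjusted p = 0.113) without wild-type 161. Ppargc1a (log2 change 0.27, adjusted p = 0.0874), Tfam (0.14, adjusted p = 0.440), Nrf1 (0.16, adjusted p = 0.548) and Gabpa (0.12, adjusted p = 0.568) did not pass.

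Respiratory chain and cytosolic ribosomal protein genes had medians like that of the members. Of 69 nuclear-encoded respiratory chain genes 2 rose, Atp5g1 by 0.43 (adjusted p = 0.0163) and Cyc1 by 0.31 (adjusted p = 0.0316), and 0 fell, with 57 above 0 and a median log2 change of 0.10. Of 44 measured cytosolic ribosomal protein genes 2 rose, Rps25 by 0.55 (adjusted p = 0.0407) and Rpl6 by 0.27 (adjusted p = 0.0441), and 0 fell, with 36 above 0 and a median of 0.10. Without mutant 191 or without wild-type 161, 0 genes of either list passed.

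**Figure D5:**
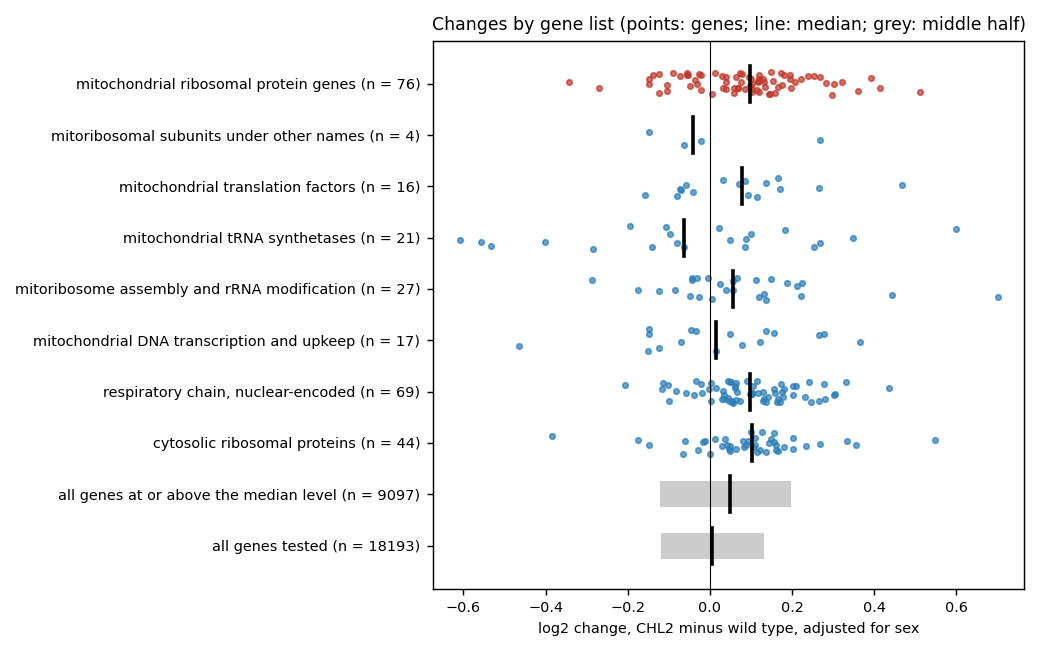
Log2 change between CHL2 and wild-type striatum, adjusted for sex, for the genes of each list (points), with the median of the list (black line). Grey bars give the middle part, from the 25th to the 75th percentile, of all genes tested and of those at or above the median level, whose medians are 0.01 and 0.05. The medians of the members, the respiratory chain and the cytosolic ribosomal proteins are all 0.10.

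Markers of cell types moved beside these values. Of 17 measured medium spiny neuron markers 16 fell and 0 rose, with a median log2 change of -1.10, and their summed log2 level was 170.0 to 174.2 in the mutants and 192.3 to 194.3 in wild-type mice. Of 13 markers of neurons in general 3 rose, Stmn2, Syp and Nefh, and 0 fell. In that list 7 log2 changes were above 0 and 6 below, with a median of 0.003. The summed level of the 13 was 141.1 to 142.6 against 138.7 to 140.6. Of 10 astrocyte markers 2 rose, S100b and Gfap, and 0 fell, at 95.7 to 97.2 against 95.6 to 97.3. Their log2 changes were above 0 for 4 and below 0 for 6, with a median of -0.08. Of 9 oligodendrocyte markers Opalin rose and Mobp fell, at 92.2 to 93.1 against 92.4 to 94.6. None of 11 microglia markers (84.1 to 85.7 against 82.8 to 85.7) or 9 endothelial and mural markers (58.7 to 60.1 against 60.2 to 62.8) passed. Some markers of these lists were dim, which limits what the lack of calls can show. The lowest mean level was 4.32 for microglia and 4.24 for endothelial and mural markers, against 7.25 or more in the other lists. Of the 11 and the 9, 9 and 5 lay at or above the median level of all genes. The part of these cell types in the values of the members was not tested.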

How the data were processed

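Striatal RNA of 8 mice was read on 1 Affymetrix array each. The deposited values are log2 expression, 1 per probe set, made by the authors with RMA and the affy package per the submitters' processing notes, with both versions not given in the sources used here. As RMA makes the distributions of the arrays alike, a shift shared by most genes cannot be seen.

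Of 45101 probe sets 64 controls were left out, 34945 had 1 gene symbol in the platform annotation, 932 several and 9160 none. For each gene the brightest probe set with no other symbol, by mean over the arrays, was kept. limma 3.58.1 in R 4.3.3 (lmFit, eBayes) was fitted over all 18193 genes with genotype and recorded sex, with Benjamini-Hochberg adjustment and a threshold of 0.05. The fit was tested on simulated data. With 4 mice per group the precision is limited by their number.

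The members and lists were chosen with earlier results of these data known. Genes were named by rule: members past the threshold, the 5 largest changes each way, the 3 brightest and 3 dimmest, the Mrps18 paralogs, members with opposed probe sets, the 3 lowest p of each list with a call, all subunits under other names, and Htt, Ppargc1a, Tfam, Nrf1, Gabpa and Lrpprc. Other members are named for their role, for a call in another setting or as partners, and were chosen after their values were seen, as was the search for neighbours within 300 bases. RefSeq promoters were the first entry per gene.

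Alternatives were the fit without sex, another prior or no moderation, renewed normalization, a filter or floor on dim genes, the mean of probe sets, array weights, other thresholds and each mouse left out. Nothing in the labels says how the animals were related. The p-values treat the mice as independent and rest on the spread between these mice.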

Additional observations from a re-analysis of the deposited data

Results flagged for a closer look

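Among the 20 members named for their values or their call in another setting, and the mean deviation of the family, 42 groups of 4 mice were checked for a mouse that lay far from the other 3, and 4 were found, where chance gives about 1 in 20. Mutant 153 stood high for Mrpl33, at 8.86 against 8.41 to 8.48 in the other mutants. Mutant 191 stood high for Mrpl39, at 10.48 against 10.21 to 10.25. Wild-type 180 stood low for Mrpl41, at 9.77 against 9.855 to 9.864, a gap that is large only for the narrow spread of that group. Wild-type 200 stood low for Mrps24, at 8.70 against 8.91 to 8.92.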

How the results depend on the processing

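The median log2 change of the members stayed above 0 in the alternatives run, between 0.07 without mutant 191 and 0.11 without mutant 141. The count of members that rose, 3, was 8 without the sex term, 8 with a trended and robust prior, 10 without the dimmer genes, and 1 or 9 at an adjusted p of 0.01 or 0.10, where 7.66%, 8.17%, 15.4%, 2.47% and 9.39% of all genes rose. It ranged from 0 to 3 when 1 mouse was left out, with 0 without mutant 191 and 1 without wild-type 180 (1.61% and 4.86% of all genes), and was 6 when the sex term was left out together with mouse 161 or 191 (6.12% and 6.63%). The count that fell, 0, was 1 without the sex term (Mrps21), with a trended and robust prior (Mrpl41), without mutant 153 (Mrpl41) and without mutant 191 and the sex term (Mrps21), where 7.50%, 7.04%, 6.12% and 7.10% of all genes fell, so it ranged from 0 to 1 over the mice left out. Why the counts moved was not tested, and the filter on dim genes changed both the genes fitted and the genes adjusted over. Of 19 other settings, Mrpl39 passed in 18, Mrps34 in 12 and Mrps22 in 11. The sign of the log2 change turned for 8 of the 76 members without the sex term, for 23 in at least 1 of the fits with a mouse left out and the sex term kept, and for 10 and 14 without the sex term and mouse 161 or 191. Among the genes whose log2 change is given in the text, it turned without the sex term for Mrpl1 (-0.11), Mrpl54 (0.064), Gabpa (-0.050) and Mrpl12 (0.049). With 1 mouse left out and the sex term kept, it crossed 0 among them for Mrpl1 (-0.0056 to 0.093), Mrpl54 (-0.058 to 0.020), Mrpl12 (-0.10 to 0.031), Mrps18a (-0.00044 to 0.14), Mrpl46 (-0.033 to 0.17), Mrpl10 (-0.061 to 0.011), Oxa1l (-0.0045 to 0.34), Dap3 (-0.15 to 0.023), Chchd1 (-0.10 to 0.058) and Mrpl11 (-0.10 to 0.18). Without wild-type 161 and the sex term it turned among them for Mrpl1 (-0.18), Mrpl54 (0.11), Tfam (-0.0015), Gabpa (-0.13), Mrpl11 (-0.043) and Mrpl12 (0.11). Without mutant 191 and the sex term it turned among them for Mrpl1 (-0.19), Mrpl54 (0.11), Mrps24 (0.054), Tfam (-0.020), Gabpa (-0.14), Mrpl46 (-0.0087) and Mrpl12 (0.074). None of these members or genes passed the threshold in those settings. From 100 bases before to 50 after the start, 31.3%, 16.4% and 14.9% of member promoters had the GABP, NRF1 and YY1 motifs. The shares were 6.89%, 3.65% and 1.98% of all promoters and 10.5%, 6.1% and 3.13% of those of genes tested. The match of Mrpl39 to the NRF1 motif lay outside that window. No paired analysis was possible because the groups share no mouse number.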

Other observations

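The mitochondrial tRNA synthetases, which charge the tRNAs that the mitochondrial ribosome uses, were the list around the ribosome with changes both ways. The 21 genes measured include Qrsl1, Gatb and Gatc, which are subunits of a tRNA amidotransferase and not synthetases. Of the 21, 2 fell and 2 rose, with a median log2 change of -0.06. Pars2, the prolyl enzyme, was at 5.83, 5.99, 5.76 and 5.75 in mutants 141, 153, 154 and 191 and at 6.29, 6.499, 6.54 and 6.56 in wild-type mice 161, 170, 180 and 200, with no overlap, and fell by 0.61 on the log2 scale (adjusted p = 0.00355). Lars2, the leucyl enzyme, was at 7.33, 7.32, 7.06 and 7.03 in the mutants and at 7.67, 7.72, 7.63 and 7.65 in wild-type mice, also with no overlap, and fell by 0.53 (adjusted p = 0.00596), though on the mean of its 3 probe sets the log2 change was -0.24 (adjusted p = 0.0751). Without mutant 191 the log2 change was -0.43 for both, and neither passed (adjusted p = 0.105 and 0.131). Iars2 and Yars2, the isoleucyl and tyrosyl enzymes, rose by 0.35 (adjusted p = 0.0319) and 0.60 (adjusted p = 0.0369), and without the sex term neither passed (adjusted p = 0.0929 and 0.172). Yars2 lies outside the naming rule and was named after its values were seen.

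Trub2, a pseudouridine synthase that acts on mitochondrial RNA, had the largest rise among the assembly and modification genes. It was at 7.51, 7.76, 7.12 and 7.24 in mutants 141, 153, 154 and 191 and at 6.49, 7.004, 6.77 and 6.65 in wild-type mice 161, 170, 180 and 200, with no overlap (log2 change 0.70, SE 0.17, adjusted p = 0.0236). Without wild-type 161 its log2 change was 0.43 (adjusted p = 0.358), while that of Mettl15 was 0.55 (adjusted p = 0.0608). Mettl15, a methyltransferase of mitochondrial ribosomal RNA, was at 6.63 to 6.99 in the mutants and 6.32 to 6.61 in wild-type mice (log2 change 0.44, SE 0.10, adjusted p = 0.0155).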
